A study of Drosophila melanogaster with 4 samples.

Results

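Closely paired promoter-sized H3K4me3 peaks are peaks at least 1000 bp and under 4000 bp wide, on the chromosome arms 2L, 2R, 3L, 3R, 4 and X of Drosophila melanogaster, with another peak of that width under 1000 bp away, counted as the bases between the facing edges. They were chosen by width and position, and 1484 of the 7425 peaks in the deposited list met the rule. These are 22.1% of the 6715 peaks on the 6 arms and 43.4% (1484 of 3418, exact Clopper-Pearson 95% interval 41.7 to 45.1) of the promoter-sized ones. The other 1934 promoter-sized peaks are called solitary below, although peaks of other widths may lie beside them. Promoter-sized refers to width alone, since no gene annotation of the build of the list was used here and no peak was assigned to a gene.

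Trimethylation of lysine 4 of histone H3 was mapped in whole embryos aged 8 to 16 h by ChIP-seq, the sequencing of DNA recovered with an antibody from cross-linked chromatin. The list comes from 2 ChIP libraries made with a rabbit polyclonal antibody and 2 input DNA libraries, the input being sequenced without immunoprecipitation. All 4 came from one fly strain marked y, cn, bw and sp, and differed in no label other than the antibody step. Besides the alleles y[1], bw[1], cn[1] and sp[1], the labels list CG33964[R4.2], lab[R4.2] and oc[R3.2], the gustatory receptor alleles Gr22d[1] and Gr22b[1], and Rh6[1], MstProx[1], LysC[1] and GstD5[1]. Whole embryos mix cell types, so a neighbouring peak may be marked in the same cells or in different ones, and the list cannot tell these apart. It also names no sample, so values have no replicate error, the depth of each library is unknown, and the intervals given cover counting over peaks only.

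As background, H3K4me3 is laid down in the fly chiefly by the methyltransferase Set1. H3K4me3 marks the nucleosomes at the start of transcribed genes, most strongly those just downstream of the start site. The fly genome is compact, and many genes start close to a neighbour that is read in the opposite direction. The stretch just upstream of an active start is commonly poor in nucleosomes and so has little histone to carry the mark. A peak list can therefore show neighbouring marked stretches with a short unmarked stretch between them, and it can also show a single marked region that the peak caller divided. Which of these a pair represents was not tested.

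The 1484 peaks formed 835 pairs of neighbours, arranged in 649 runs. A run is a row of promoter-sized peaks each under 1000 bp from the next. Pairs proper were the usual form, with 510 runs of 2 members, which is 78.6% of the runs and 1020 of the peaks. The remaining 464 peaks lay in 139 longer runs, made up of 104 runs of 3 members, 27 of 4, 5 of 5, 2 of 6 and 1 of 7. The label of a pair thus describes most of the runs and not all of them. A run of 2 spanned a median of 4333 bp from first to last base, with quartiles of 3543 and 5139 bp. Peaks filled a median of 92.6% of the span of a run. Of all runs, 442 of 649, or 68.1%, spanned 4000 bp or more, so joined peaks would have left the promoter-sized class. When neighbours under 200 bp apart were merged before the rule was applied, 970 peaks met it, and with a lower width limit of 500 bp 2428 did.

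The gaps within pairs were short. The median gap was 284 bp, the quartiles were 168 and 451 bp, and the shortest was 50 bp. Gaps of at least 100 and under 400 bp made up 505 of the 835 pairs, or 60.5%, and 658 pairs, or 78.8%, lay under 500 bp apart. In classes of 100 bp, the fullest began at 100 bp and held 196 pairs, ahead of 169 pairs in the class from 200 bp and 140 in that from 300 bp. The count was down to 20 pairs in the class from 800 bp and was 29 in the class from 900 bp. Below 100 bp there were 74 pairs, all of 50 bp or more. Over all 7410 pairs of neighbours in the list, of any width and on any sequence, the shortest gap was also 50 bp.

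**Figure D1:**
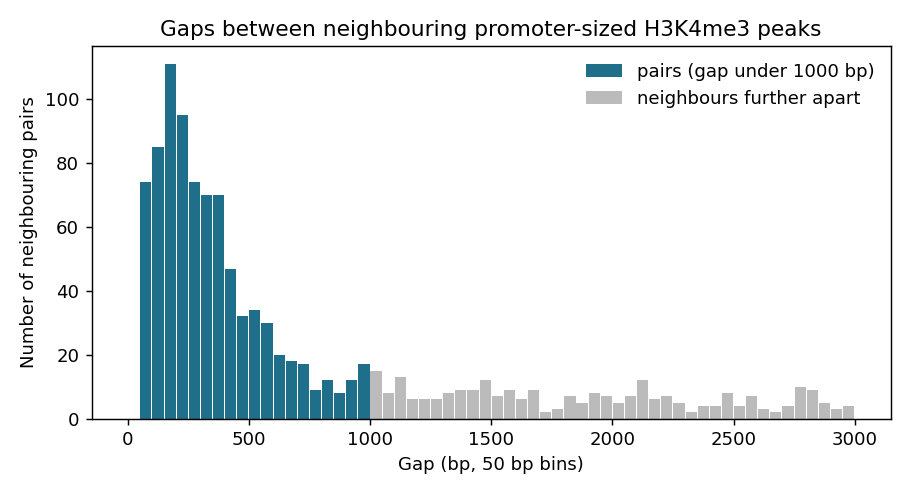
Number of neighbouring promoter-sized peaks (vertical axis) by the bases between them in 50 bp bins (horizontal axis), drawn to 3000 bp. Dark bars are the 835 pairs, with a median gap of 284 bp, and grey bars are neighbours further apart, which the rule leaves out.

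The limit of 1000 bp fell in the tail of this distribution. Counts in classes of 500 bp still fell across it, while those in classes of 100 bp did not fall steadily near it. Among neighbouring promoter-sized peaks, 658 gaps were under 500 bp, 177 lay in the next 500 bp, 92 in the 500 bp from 1000 bp and 63 in the 500 bp from 1500 bp. Just inside the limit, 29 pairs had gaps of 900 bp or more, and over both peaks the median score was 188.4 and the median width 2218 bp. Just outside it, 23 neighbours had gaps from 1000 to under 1100 bp, where the corresponding medians were 206.0 and 2140 bp. At the lower width limit, 88 of 248 peaks from 1000 to under 1100 bp were members, with a median score of 97.0. A further 75 of 221 peaks from 900 to under 1000 bp, with a median score of 62.7, lay as close to a promoter-sized peak without being counted. At the upper limit, 23 of 40 peaks from 3900 to under 4000 bp were members, and 11 of 28 peaks from 4000 to under 4100 bp lay beside a promoter-sized one.

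Most gaps were empty of other peaks. In 799 of the 835 pairs the members were direct neighbours in the list, with a median gap of 272 bp. In the other 36 pairs, or 4.31%, a single narrow peak lay in the gap, which then measured 528 bp or more. The median width of these narrow peaks was 394 bp and their median score 12.7, although the highest scored 181.1. Short gaps were not confined to promoter-sized neighbours. Of the 3105 neighbours of any width under 1000 bp apart on the arms, 1223 joined a narrow peak (under 1000 bp) to a promoter-sized one, with a median gap of 259 bp. A broad peak (4000 bp or wider) and a promoter-sized one were neighbours 316 times, with a median gap of 242 bp. Broad peaks neighboured each other 62 times, with a median gap of 306 bp. The median gap thus lay between 242 and 306 bp for these classes, and no test of a difference was made.

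Paired peaks were somewhat wider and higher in score than solitary ones. The score is the authors' own value for each peak, and no source used here gives its scale, so it is compared only within this list. The score of paired peaks had a median of 213.4, with quartiles of 138.2 and 290.6. That of solitary peaks had a median of 186.7, with quartiles of 104.4 and 271.4, so the distributions overlapped widely. Median widths were 1951 and 1731 bp. Scores under 50 were found in 5.73% of paired peaks (85 of 1484) and 9.31% of solitary ones (180 of 1934). Width and score come from the peak call that the rule used, and these values are a description with no test.

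At like width the paired peaks had the higher median score in 5 of 6 width classes of 500 bp. From 1000 to under 1500 bp the median score was 138.6 for 401 paired and 110.2 for 707 solitary peaks. From 2000 to under 2500 bp it was 250.1 and 234.3. From 3500 bp upward the medians were 270.8 and 267.6. From 3000 to under 3500 bp, the exception, the order was the other way round, at 237.0 for 150 paired and 276.3 for 132 solitary peaks. The share of promoter-sized peaks that were paired was 36.2% from 1000 to under 1500 bp, 45.0% from 2000 to under 2500 bp and 53.3% from 3500 bp to the upper limit.

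The members of a pair did not resemble each other in score more than other members of the same arm did. The median ratio of the higher to the lower score was 1.64 within pairs, with quartiles of 1.26 and 2.69 and an order-statistic 95% interval of the median of 1.59 to 1.76. As a reference, every combination of members of the same arm that are not a pair was formed, 218513 in all, with each arm weighted by its number of pairs. In these re-paired combinations the median ratio was 1.67, with quartiles of 1.26 and 2.65. On the log2 scale the re-paired median exceeded that of the pairs by 0.026, and the interval of the pairs' median corresponds to differences of -0.074 to 0.070. By rank among the promoter-sized peaks, which does not depend on the scale of the score, the members of a pair lay a median of 27.9 percentile points apart and re-paired members 28.0. With the lower width limit of 500 bp, which brings in weaker peaks, the median absolute log2 score ratio within pairs was 1.20, against 0.71 under the rule. No re-paired value was formed at that limit, so the 1.20 does not bear on agreement.

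The same held across the range of ratios, where each re-paired combination is counted once without the weights for arms. Scores lay within a factor of 1.1 in 96 of 835 pairs, or 11.5%, against 10.4% of re-paired combinations. Within a factor of 1.5 lay 346 pairs, or 41.4%, against 41.0%. Within a factor of 2 lay 510 pairs, or 61.1%, against 61.6%, and within a factor of 4 lay 714 pairs, or 85.5%, against 86.0%. Each share of pairs was near its background.

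**Figure D2:**
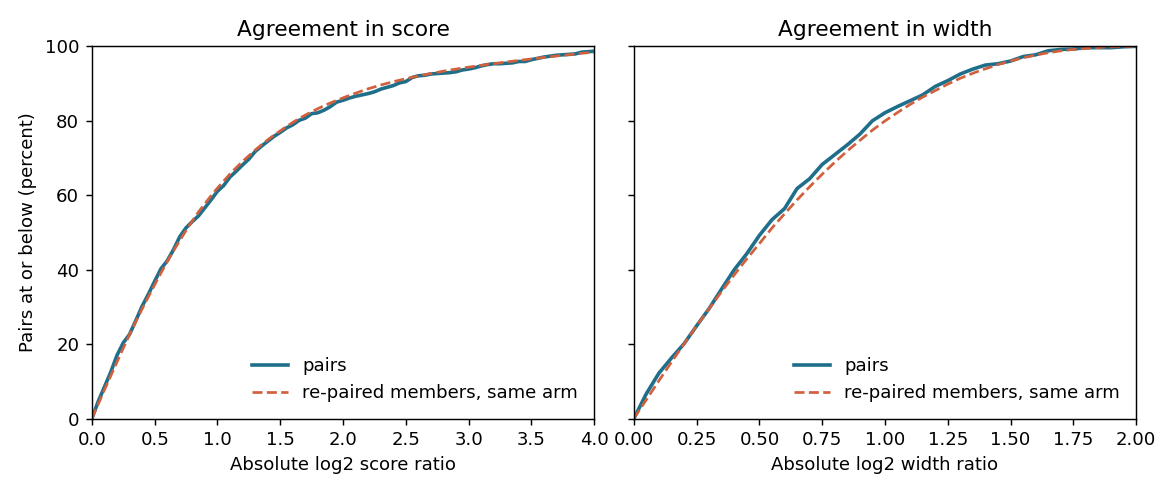
Cumulative percent of pairs (vertical axis) at or below an absolute log2 ratio (horizontal axis) of score on the left and width on the right, for the 835 pairs (solid) and all re-paired members of the same arm (dashed). The dashed curves weight each arm by its number of pairs, unlike the shares within a factor given in the text. The curves nearly coincide for score, and the pairs run slightly above the re-paired members for width.

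A member's score gave little account of its partner's. Partners of members that scored under 50 had a median score of 217.5, and partners of members that scored 350 or more had a median of 225.9. For members scoring from 50 to under 200 and from 200 to under 350 the medians of the partners were 211.5 and 220.1. Over the 835 pairs Spearman's rho between left and right score was 0.038 and Pearson's r of log2 scores was 0.020. These describe pairs of the same libraries, in which a peak of a longer run enters more than once, and no p is given. The width limits of the rule narrow the range of scores on both sides.

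**Figure D3:**
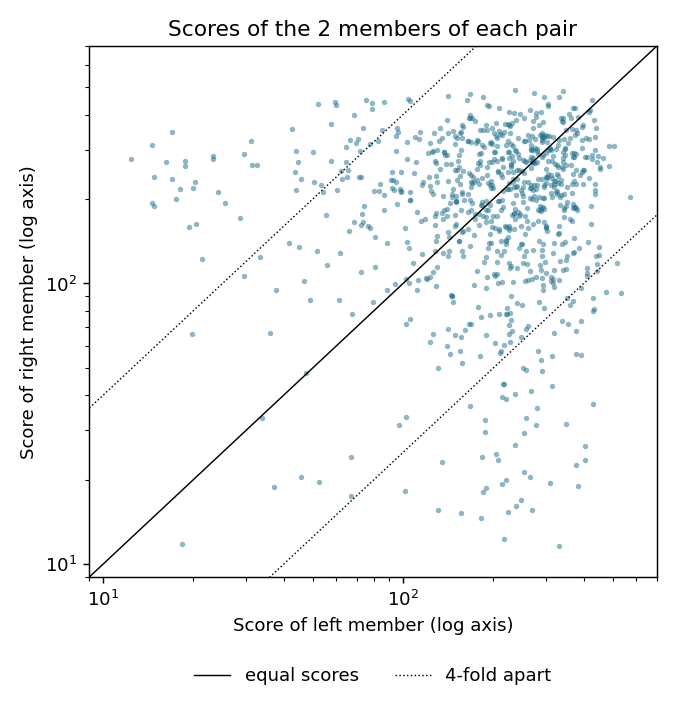
Score of the left member (horizontal, log axis) against score of the right member (vertical, log axis) for each of the 835 pairs, with lines at equal scores and at a 4-fold difference. Members scoring under 50 sit along both axes beside partners whose quartiles are 134.4 and 268.6, and Spearman's rho is 0.038.

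Widths within pairs were as loosely matched. The wider member was a median of 1.42 times as wide as the narrower (quartiles 1.19 and 1.85, 95% interval of the median 1.38 to 1.46), against 1.45 in re-paired combinations. Widths lay within a factor of 1.5 in 464 pairs, or 55.6%, against 53.8% of re-paired combinations counted without weights, and within a factor of 2 in 686 pairs, or 82.2%, against 80.0%. Spearman's rho between left and right width was 0.058. The narrower member had a median of 1599 bp and the wider one 2554 bp. The wider member also had the higher score in 545 pairs, or 65.3%, and in 64.7% of re-paired combinations weighted by arm. Across single peaks rho between score and width was 0.435 for paired and 0.539 for solitary peaks.

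Left and right members were alike in level. Left members, those with the lower coordinates, had a median score of 219.9 and right members 213.7. The right member scored higher in 392 of 835 pairs, or 46.9% (exact 95% interval 43.5 to 50.4), and was wider in 420, or 50.3%. A side on the chromosome has no fixed relation to the direction of transcription, which the list does not give.

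The scores of pair members were not more alike where the gap was shorter. Among pairs with gaps under 200 bp the median score ratio was 1.75 (270 pairs), from 200 to under 400 bp it was 1.64 (309 pairs), and from 400 bp upward it was 1.59 (256 pairs). The 95% intervals of these 3 medians overlapped. Among neighbouring promoter-sized peaks outside the rule, the ratio was 1.96 for the 155 neighbours with gaps from 1000 to under 2000 bp. It was 1.81 for gaps up to 5000 bp, 1.68 up to 10000 bp, 1.76 up to 50000 bp and 1.91 beyond. The values did not rise steadily with the gap. The neighbours beyond 50000 bp also scored lower, with a median of 177.2 over both peaks against 214.1 to 218.7 in the classes of pairs. The median width ratio lay from 1.39 to 1.46 over the 8 classes.

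**Figure D4:**
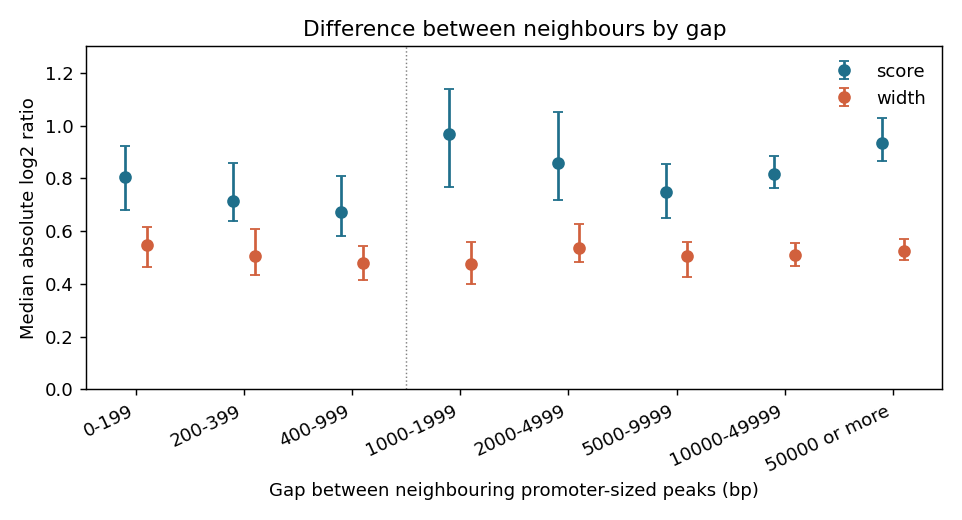
Median absolute log2 ratio (vertical axis) of score and of width between neighbouring promoter-sized peaks by gap class in bp (horizontal axis), with order-statistic 95% intervals. Classes left of the dotted line are the pairs. The score medians lie from 0.67 to 0.97 and the width medians from 0.48 to 0.55.

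Uneven pairs joined a strong peak to a weak and narrow one. In 121 pairs, or 14.5%, the scores differed 4-fold or more. The lower scores of these pairs had a median of 37.1 and the higher ones 273.3, so the higher member was at the level of the higher members of all pairs, whose median was 273.0. The weaker member had a median width of 1232 bp against 2453 bp for the stronger, and it was the narrower in 113 of the 121 pairs. It lay on the left in 57. The median gap, 288 bp, was close to the 284 bp of all pairs. These pairs were picked on their scores, so their scores are not a finding. Score and width also rose together across single paired peaks (Spearman's rho 0.435). No re-paired combinations with a 4-fold difference were examined, so the widths are not shown to be particular to pairs.

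The most uneven pair was on 3R, where a peak from 4865401 to 4869326 scored 332.05 and its neighbour from 4869395 to 4870415, across a gap of 68 bp, scored 11.59. The score ratio was 28.6, and the widths were 3926 and 1021 bp. The next was also on 3R, with a score of 12.36 from 12972398 to 12973665 and of 277.39 from 12973773 to 12975302. Here the widths were closer, at 1268 and 1530 bp. The third was on X, with a score of 14.6 from 11258002 to 11259245 and of 310.33 from 11259775 to 11262252.

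The most even pairs were matched in score and not always in width. On 2L the peaks from 13016057 to 13019231 and from 13019349 to 13021398 scored 350.4 and 351, with widths of 3175 and 2050 bp. On 3R the peaks from 7255721 to 7257367 and from 7257514 to 7261401 scored 231.9 and 230.69, although the second was 3888 bp wide and the first 1647 bp. The third such pair was the first of a run of 7 members on 2L that is described below. Over the 96 pairs within a factor of 1.1 in score, the median width ratio was 1.37.

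Pairs were ranked by the score of their weaker member, a choice that fixes that both members of the leading pairs are strong. On 3R the peaks from 27876106 to 27877832 and from 27878237 to 27880560 scored 428.05 and 450.22, which is the pair whose lower score was the highest of all. The next pairs by this measure were also on 3R, at 8452333 to 8455699 with scores of 418.66 and 415.41 and at 7034588 to 7037447 with 416.43 and 410.02. The leading pair of X, at 16677932 to 16685278, scored 432.5 and 381.69 and consisted of wide members of 3174 and 3551 bp. The leading pair of 2L, at 4224483 to 4229511, scored 374.06 and 420.67. That of 3L, at 7360779 to 7365175, scored 368.45 and 422.81, and that of 2R, at 11197365 to 11201045, scored 365.69 and 355.74. On chromosome 4 the leading pair, at 678546 to 686119, scored 277.97 and 404.24, with a gap of 729 bp. The 3 pairs that hold the highest single scores, picked after their values were seen, were uneven. A score of 570.4 on 3R, from 10564934 to 10566589, lay beside 203.33, one of 533.29 on 3L, from 19824941 to 19827513, beside 92.16, and one of 516.47 on 2R, from 17030970 to 17033365, beside 118.03. Over all pairs both members were above the median of promoter-sized peaks, 199.13, in 261 pairs, or 31.3%, and both below it in 168, or 20.1%. In re-paired combinations weighted by arm these shares were 30.3% and 20.6%.

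The pairs at the ends of the gap range are few, and no pattern of score was tested on them. The shortest gap of 50 bp occurred in 4 pairs, not all of which are listed. On 2R, at 14857116 to 14862103, its members scored 266.89 and 219. On 3L, at 834051 to 841326, they scored 240.8 and 329.45, and, at 21530096 to 21534358, 410.59 and 283.33. The longest gaps, of equal length and just under 1000 bp, were on 2L at 6033783 to 6039644, with scores of 318.06 and 66.79, and on X at 3993042 to 3999769, with scores of 255.88 and 173.92. Each of these held a narrow peak in the gap. The next longest, 995 bp on 2R at 5437756 to 5443149, was empty and lay between scores of 75.19 and 449.84.

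Scores both rose and fell along the longest runs. The longest was on 2L from 13363783 to 13382213, where 7 peaks filled 93.9% of 18431 bp. Its scores from left to right were 268.5, 270.17, 335.83, 226.21, 118.69, 169.18 and 387.47, with gaps of 79 to 379 bp. The run therefore had its lowest member just right of its middle and its highest at the right end. On 3R a run of 6 from 25680546 to 25698062 scored 339.25, 73.64, 359.22, 330.36, 103.07 and 319.25. Its weak second member, 1221 bp wide, lay between strong neighbours at gaps of 154 and 105 bp. On X a run of 6 from 15626149 to 15642808 scored 98.63, 212.61, 246.56, 16.94, 345.8 and 303.77. The fourth member was the weakest and the narrowest, at 1106 bp. In the 104 runs of 3 the middle member had a median score of 239.1, against 217.1 for the first and 182.7 for the last. It was the highest of the 3 in 45 runs, or 43.3% (exact 95% interval 33.6 to 53.3), and the lowest in 26. If order and score were unrelated, each of the 3 would be highest equally often, and scores would also rise and fall along runs. No reference with re-ordered members was formed, so the scores along runs are a description.

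A smaller share of paired than of solitary peaks lay beside a peak of another width. A narrow peak lay under 1 kb from 429 paired peaks, or 28.9%, and from 692 solitary ones, or 35.8%. A broad peak lay that close to 85 paired peaks, or 5.73%, and to 228 solitary ones, or 11.8%. A paired peak has a promoter-sized neighbour on at least 1 side by the rule, which leaves fewer free sides for others, so these shares are not tested against each other.

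Paired peaks occurred on all 6 arms, and X had the largest share. On X 322 of 655 promoter-sized peaks were paired, or 49.2% (exact 95% interval 45.3 to 53.1). On 2L, 2R, 3L and 3R together 1147 of 2716 were, or 42.2% (40.4 to 44.1). The shares were 43.9% on 2L (39.8 to 48.0), 37.9% on 2R (34.2 to 41.7), 43.0% on 3L (39.2 to 46.9) and 43.9% on 3R (40.5 to 47.4). The interval of X overlapped those of 2L, 3L and 3R and not that of 2R. Chromosome 4 had 15 of 47, or 31.9% (19.1 to 47.1). The difference of 6.93 percentage points between X and the autosomal arms lay between 1.15 and 12.7 when the bounds of both intervals were set against each other, and it was not seen among the closest pairs. With a limit of 500 bp X had 34.2% and the autosomal arms 35.8%, which put X lower by a difference of -1.55 points. Without the lowest 50% of peaks by score the difference was 5.76 points, with bounds of -0.70 and 12.3 that include 0. These intervals treat peaks as independent, while the share varied widely along the arms, as described below.

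The median gap was longer on X and on chromosome 4. The median gap on X was 355 bp (order-statistic 95% interval 305 to 385) over 179 pairs, and on the 4 large autosomal arms it was 267.5 bp (248 to 287) over 648 pairs. Gaps under 500 bp made up 68.2% of the pairs of X and 82.6% of the autosomal pairs. Among these closer pairs the median gap was 242.5 bp on X (205 to 298) and 226 bp on the autosomal arms (213 to 243), with overlapping intervals. Among the autosomal arms the median ran from 233 bp on 2L to 314 bp on 2R, whose interval of 277 to 348 bp overlapped that of X. On chromosome 4 only 1 of 8 pairs had a gap under 500 bp, and its median was 695.5 bp. Gap was used by the rule, and these are descriptions with no test.

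Paired peaks of X had a median score of 191.7, against 222.2 on the autosomal arms, and the solitary peaks of X had 173.6 against 187.3. The median widths of paired peaks were 1931 bp on X and 1974 bp on the autosomal arms. The median score ratio within pairs ran from 1.58 on 2L to 1.84 on 3R among the 5 larger arms, and the re-paired ratio ran from 1.57 to 1.81 on the same arms. On X it was 1.60 in pairs and 1.61 re-paired. On chromosome 4 it was 2.72 against 1.697, from 8 pairs.

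**Figure D5:**
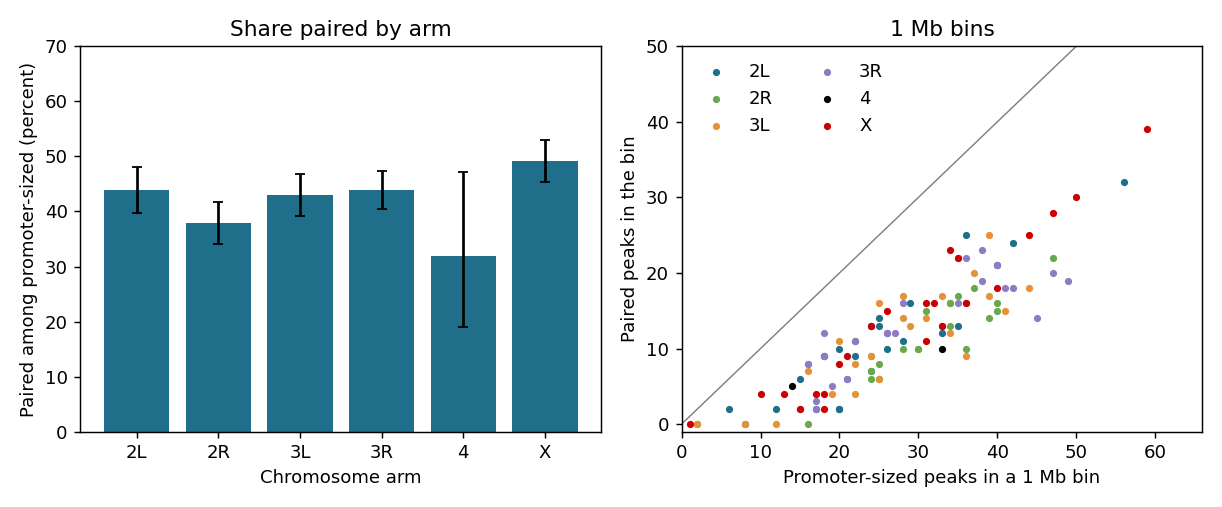
Left, percent of promoter-sized peaks that are paired (bars from 0) on each arm, with exact 95% intervals. Right, paired peaks (vertical axis) against promoter-sized peaks (horizontal axis) in 1 Mb bins, coloured by arm, with a line where all would be paired. The fullest bin, on X, held 39 paired of 59 promoter-sized peaks.

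Paired peaks gathered where promoter-sized peaks were dense. The fullest 1 Mb bin of X, from 15 to 16 Mb, held 39 paired of 59 promoter-sized peaks, or 66.1%, in 14 runs. On 2L the bin from 10 to 11 Mb held 32 of 56, on 3L that from 1 to 2 Mb 25 of 39, on 3R that from 12 to 13 Mb 23 of 38 and on 2R that from 3 to 4 Mb 22 of 47. On chromosome 4 the bin from 0 to 1 Mb held 10 of 33. Among the 117 bins with 10 or more promoter-sized peaks the share that was paired had a median of 43.6%, with quartiles of 33.3% and 51.5% and a range from 0 to 69.4%. Spearman's rho between the number of promoter-sized peaks and this share was 0.410 across those bins. A peak in a dense bin has more neighbours that could meet the rule, and the bins share the same libraries, so this is a description. The 10 bins with the most paired peaks held 274 of them, or 18.5%, and 13.0% of the promoter-sized peaks. These bins were picked on their count of paired peaks, so the larger share of paired peaks is not a finding. In 7 of the 123 bins with a promoter-sized peak none was paired. Runs lay a median of 98.7 kb from the next run on the arm, with quartiles of 25.9 and 245.2 kb.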

How the data were processed

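The only values analysed were the deposited peak list of the whole series. Its coordinates follow FlyBase release 5 and its caller is named as MACS, per the file headers. Tools named in the submitters' processing notes are MACS2, BWA and CASAVA (1.7.0.2 and 1.7.0.3), and the build named there is BDGP5. The settings used, and whether libraries were pooled before peaks were called, are not given in the sources. The score is the authors' value per peak as deposited, on an unstated scale. Per the labels' protocols, embryos were fixed in 1.8% formaldehyde for 15 min.

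Width was end minus start plus 1, and a gap was the number of bases between facing edges. Pairs were neighbouring promoter-sized peaks under 1000 bp apart. The re-paired reference enumerated all other combinations of members of an arm, with no random draws. Medians have exact binomial order-statistic 95% intervals and shares Clopper-Pearson 95% intervals. They treat peaks as independent. No test was run, because the rule used the same peak call. Pairs named by position were fixed by rule: the highest lower score overall and per arm, the extremes of score ratio and gap, the longest runs and the fullest bins. The members and quantities were chosen with earlier results of these data known. The gene table at hand is of release 6, so no gene was assigned and no sequence is shown. Python 3.11.15, numpy 2.4.6, scipy 1.17.1, pandas 2.3.3 and matplotlib 3.10.9 were used, and the pairing was tested on simulated data. Alternatives were other gap limits, width bands, score thresholds, merging, subsets of pairs, summary measures and re-pairings.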

Additional observations from a re-analysis of the deposited data

How the results depend on the processing

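No paired analysis was possible because the list names no sample, and leaving out a replicate was likewise not possible. Of 56 alternatives, 37 stayed within the limits of the main value, 18 moved past them and 1 reversed a difference whose bounds left out 0. The limits were mostly the interval or bounds of the main value. The number of paired peaks has no interval, so its limit was a factor of 1.5. Differences in rank stayed within limits if their interval still included 0. The number of paired peaks, 1484, became 2428 with a lower width limit of 500 bp and 970 when peaks closer than 200 bp were merged first. Within the factor of 1.5, it was 1042 without the lowest 50% of peaks by score and 1079 with widths under 3000 bp. The share paired, 43.4%, was 35.0% and 49.8% at gap limits of 500 and 2000 bp, 36.3% with widths under 3000 bp, 52.1% with widths from 500 bp, 39.2% without the lowest 50% of peaks by score and 33.3% after merging. The median gap, 284 bp, was 231 and 334 bp at the 2 gap limits, by construction, and 368 bp after merging. The median absolute log2 score ratio within pairs, 0.71, was 1.20 with widths from 500 bp, 0.48 without the lowest 50% and 1.03 as a mean. For width, 0.51 became 0.41 with widths under 3000 bp, 0.74 with widths from 500 bp and 0.59 as a mean. The excess of the re-paired width ratio over that of pairs, 0.026 on the log2 scale, became -0.016 when right members were re-paired with the next pair along the arm. The excess for score kept an interval that included 0 in all 8 alternatives tried, which did not include other width bands or merging. The X minus autosome share, 6.93 points (bounds 1.15 to 12.7), reversed to -1.55 at 500 bp (-7.02 to 4.03), was 7.96 at 2000 bp, and was 5.76 without the lowest 50% by score, where the bounds of -0.70 to 12.3 came to include 0. Depth is unknown, so a gap shows only that no peak was reported there at the authors' threshold.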
